A study of Mus musculus with 7 samples.

Results

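The IFIT genes Ifit1, Ifit2, Ifit3 and Ifit3b and the viperin gene Rsad2 were followed in primary hepatocytes of mice that lack WDR6. These 5 genes were taken by symbol from a count table of 14819 rows, of which 14779 genes were tested, and all 5 members were among the genes tested. They had been picked because earlier results on the same libraries showed them higher in WDR6-WKO hepatocytes, so their own values are given here as a description and without a test.

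Hepatocytes came from livers of male WT and WDR6-WKO mice and were kept in culture overnight without treatment. In WDR6-WKO mice exon 2 of Wdr6 was removed from the whole body with CRISPR–Cas9, so non-parenchymal cells carried the deletion as well, and the number of founder lines is not given in the sources used here. The study states a default age for its purchased C57BL/6J mice, but not whether it holds for the sequenced mice. WT mice of the study were C57BL/6J, while the strain of the WDR6-WKO line is not given. RNA was sequenced in 4 WT and 3 WDR6-WKO libraries, which the submitters describe as independent experiments.

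IFIT proteins are built from tetratricopeptide repeats and are made mainly once a cell meets interferon or viral RNA. IFIT1 holds the 5′ end of RNA whose cap lacks the methyl marks of the cell's own mRNA, IFIT1 and IFIT2 can also bind the translation initiation factor eIF3, and human IFIT3 stabilises IFIT1. Viperin is a radical SAM enzyme on the endoplasmic reticulum and on lipid droplets that turns CTP into ddhCTP, a nucleotide that stops viral RNA polymerases. Type I interferon acts on these genes through receptor kinases and a transcription factor complex named ISGF3, which binds a DNA element called ISRE.

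The promoter sequences of the members are shown because the core of the ISRE can be read in them. RefSeq windows of GRCm38.p6, with 250 bases before and 50 bases from each annotated start on, were matched by symbol for 5 of 5 members. The stretches below end at the base before the start (position -1) and run 5′ to 3′ on the gene's own strand. Capitals mark 2 copies of GAAA set 2 bases apart, on either strand; on the opposite strand the copies read TTTC. For Ifit1 the stretch begins after the first exon of Ifit1bl2, which lies head to head with it.
Ifit1, chr19:34640744-34640888, plus strand: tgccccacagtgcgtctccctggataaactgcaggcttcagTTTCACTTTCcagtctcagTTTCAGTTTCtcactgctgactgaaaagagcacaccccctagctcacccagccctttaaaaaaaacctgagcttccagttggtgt
Ifit3, chr19:34583329-34583528, plus strand: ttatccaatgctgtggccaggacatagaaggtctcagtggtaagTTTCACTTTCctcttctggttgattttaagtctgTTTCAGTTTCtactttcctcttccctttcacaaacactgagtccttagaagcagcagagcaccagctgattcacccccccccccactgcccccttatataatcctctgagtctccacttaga
Ifit3b, chr19:34607757-34607956, plus strand: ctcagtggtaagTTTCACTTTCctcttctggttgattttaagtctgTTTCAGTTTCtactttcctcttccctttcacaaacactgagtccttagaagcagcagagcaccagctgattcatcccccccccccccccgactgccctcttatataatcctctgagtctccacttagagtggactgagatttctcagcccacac
Rsad2, chr12:26456453-26456652, minus strand: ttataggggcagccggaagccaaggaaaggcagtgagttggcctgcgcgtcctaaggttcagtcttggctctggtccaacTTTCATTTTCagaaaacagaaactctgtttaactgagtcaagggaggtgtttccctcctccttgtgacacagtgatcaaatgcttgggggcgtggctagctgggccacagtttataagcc
Ifit2, chr19:34550494-34550693, plus strand: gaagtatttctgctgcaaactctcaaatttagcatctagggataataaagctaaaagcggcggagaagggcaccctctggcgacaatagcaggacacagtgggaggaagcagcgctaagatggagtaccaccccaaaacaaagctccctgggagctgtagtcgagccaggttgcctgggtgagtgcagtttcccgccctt

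The paired motif was present in the windows of 4 members. It began at -104 and -85 in Ifit1, at -156 and -122 in Ifit3, at -188 and -154 in Ifit3b and at -120 in Rsad2, each time on the opposite strand. It was in neither of the windows at the annotated starts of Ifit2, which held instead 1 match to the GAS core (TTC and GAA set 3 bases apart), at -241. Of all 32851 RefSeq windows of the same length, 3.44% held the paired motif and 8.30% the GAS core. The windows of Ifit3 and Ifit3b share an unbroken run of 169 bases, and those of Ifit1 and Ifit1bl2 share 245 bases read from opposite strands, so the pairs are not independent sequences. A match is a description of the letters and not of a bound site. Because 71.5% of the genes tested could be matched to a window, a comparison of calls between genes with and without the motif was void and was not made.

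The members differ in how well reads can be assigned to them. The coding sequences of Ifit3 and Ifit3b, both 1209 bases long for 403 residues, were 99.1% identical, and 51.2% of the 50-base sequences of Ifit3 transcripts occur in Ifit3b. Ifit1 codes for 463 residues and shares 7.14% of its 50-base sequences with other genes, nearly all with Ifit1bl2. Ifit2 codes for 470 residues and viperin for 362, and neither gene shares any 50-base sequence with another gene. Ifit1 and Ifit2 were 62.6% identical over the aligned bases of their coding sequences, while the alignment of Ifit1 with the unrelated Rsad2 gave 64.8%, and over the longer sequence of each pair the identity was 58.9% and 48.6%. No exon of a member overlaps an exon of another annotated gene.

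The libraries held 17816913 to 23668940 counted reads. Wdr6 itself, the targeted gene, had a mean of 44.0 ± 4.03 CPM (read counts scaled to library size with edgeR's TMM method; s.d., n = 4) in WT and one of 2.38 ± 0.179 CPM (s.d., n = 3) in WDR6-WKO libraries (log2 fold change -4.20, standard error 0.11, adjusted p = 3.44e-12 in edgeR's quasi-likelihood test over all genes). WDR6-WKO replicate 3 lay farther from the other libraries of its genotype (chi-square of 14.3 and 16.0 per gene) than any other pair of the same genotype, for which the value lay between 3.80 and 8.23. Of the 14779 genes tested, 983 (6.65%) were called higher and 914 (6.18%) lower in WDR6-WKO hepatocytes at an adjusted p under 0.05, and these counts depend on the libraries used: without WDR6-WKO replicate 3 they were 2150 and 2083, without replicate 1 they were 603 and 577, and without replicate 2 they were 570 and 462. Without WT replicate 3 the counts were 638 and 572, without WT replicate 4 they were 648 and 534, and without WT replicate 2 the count of lower genes was 605.

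Rsad2 was the most abundant member in every WDR6-WKO library. It was counted at 9.02, 7.12, 10.7 and 10.4 CPM in WT replicates 1 to 4, from 136 to 208 reads. In WDR6-WKO replicates 1 to 3 it stood at 55.1, 48.8 and 50.7 CPM, from 907 to 1327 reads. The lowest WDR6-WKO library was 4.54 times the highest WT library. The means were 9.33 ± 1.65 CPM (s.d., n = 4) and 51.5 ± 3.28 CPM (s.d., n = 3), and the fitted log2 fold change was 2.46 (standard error 0.11), or 5.52-fold.

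Ifit1, the member that binds foreign caps, was measured at 4.13, 4.40, 5.58 and 6.23 CPM in WT replicates 1 to 4. In the WDR6-WKO libraries its levels were 22.7, 21.7 and 22.8 CPM, which is the tightest group of values of any member in that genotype, with a coefficient of variation of 2.72%. The groups were apart by a factor of 3.49 between the lowest WDR6-WKO and the highest WT library. The log2 fold change of Ifit1 was 2.14 (standard error 0.12) between means of 5.09 ± 0.987 CPM and 22.4 ± 0.609 CPM (s.d., n = 4 and n = 3).

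Ifit3 stood at 3.78, 3.19, 4.57 and 3.36 CPM in WT and at 21.4, 17.3 and 19.0 CPM in WDR6-WKO replicates 1 to 3. Its near copy Ifit3b was the lowest member in every library, at 0.403, 0.419, 0.425 and 0.753 CPM in WT, which are 8, 8, 8 and 15 reads. In WDR6-WKO hepatocytes Ifit3b reached 5.65, 6.57 and 5.25 CPM, or 136, 139 and 94 reads. Neither gene's groups overlapped. The log2 fold change was 2.37 (standard error 0.13) for Ifit3 and 3.52 (standard error 0.23) for Ifit3b, which was the largest value of all genes tested, but a count of 8 has an exact 95% Poisson interval of 3.45 to 15.8 reads, for counting error only. Because the tool and the treatment of reads that match several genes are not given in the sources used here, the counts of this pair may have been split between them or left out. Added together, Ifit3 and Ifit3b stood at 4.23 CPM in WT and 25.1 CPM in WDR6-WKO hepatocytes, a ratio of 5.92. The ratio of Ifit3b to Ifit3 reads was 0.0930 to 0.224 in the WT libraries and 0.265 to 0.379 in the WDR6-WKO libraries.

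Ifit2 had the smallest difference of the members. In WT hepatocytes it was at 23.2, 23.8, 23.6 and 23.3 CPM, far above the other members, with a coefficient of variation of 1.15% where counting error alone gives 4.68%. In the WDR6-WKO libraries it stood at 32.8, 29.2 and 34.9 CPM. The groups were apart by a factor of 1.23 only, and the log2 fold change was 0.46 (standard error 0.08), or 1.37-fold. By fold change Ifit2 was at rank 922 of all genes tested, whereas Ifit3b, Rsad2, Ifit3 and Ifit1 were at ranks 1, 5, 6 and 9.

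All 5 members thus had WDR6-WKO ranges above the WT ranges, which was so for 1747 of the genes tested (11.8%). Since the members were chosen on this contrast, nothing is read from that count. In bulk RNA a change in the level per cell and a change in the share of cells that express the gene cannot be told apart.

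**Figure D1:**
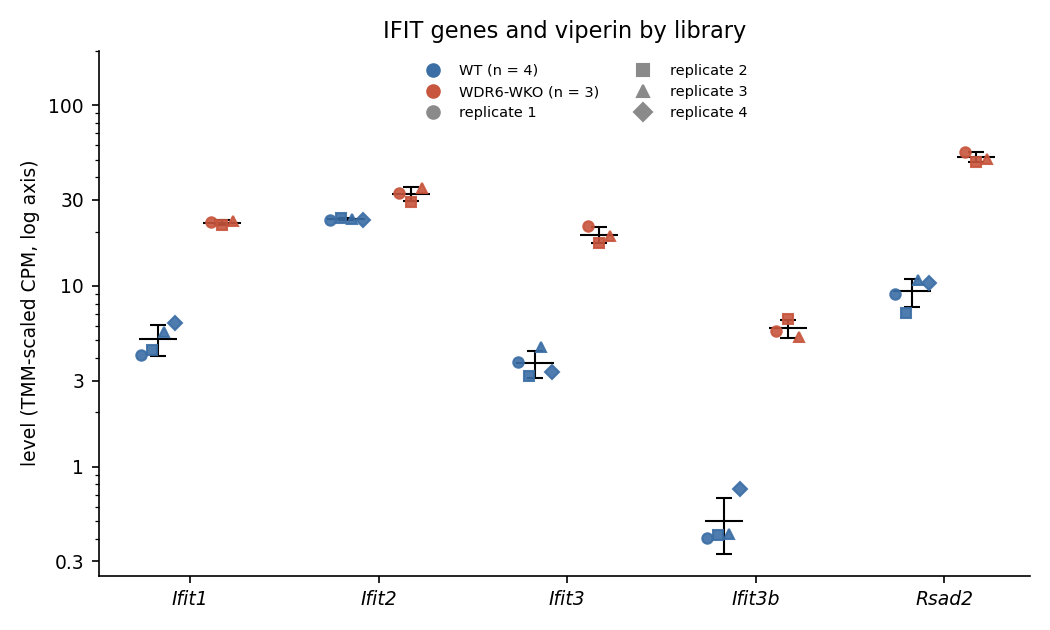
Level of each member in every library, in TMM-scaled CPM on a log axis, for WT (blue) and WDR6-WKO (red) hepatocytes; symbols mark replicates, and black bars give the mean and s.d. For Ifit2 the groups lie close together (23.2 to 23.8 against 29.2 to 34.9 CPM), and for Ifit3b they lie farthest apart (0.403 to 0.753 against 5.25 to 6.57 CPM).

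Per kilobase of exon, the levels in WT hepatocytes ran from Ifit2 at 5.98 ± 0.0685 CPM per kb through Rsad2 at 2.15 ± 0.381, Ifit3 at 2.14 ± 0.352 and Ifit1 at 1.91 ± 0.372 to Ifit3b at 0.250 ± 0.0844 (s.d., n = 4). The ranges of Rsad2, Ifit3 and Ifit1 overlapped. In WDR6-WKO hepatocytes the order was Rsad2 at 11.9 ± 0.756, Ifit3 at 11.0 ± 1.16, Ifit1 at 8.45 ± 0.229, Ifit2 at 8.22 ± 0.721 and Ifit3b at 2.91 ± 0.338 CPM per kb (s.d., n = 3). There Rsad2 and Ifit3 overlapped, and so did Ifit1 and Ifit2. Ifit2, the highest member per kilobase in every WT library, was thus below Rsad2 and Ifit3 in every WDR6-WKO library.

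The make-up of the group changed with its size. The CPM of the 5 members summed to 39.0 in the lowest and 44.9 in the highest WT library and to 124 in the lowest and 138 in the highest WDR6-WKO library, with means of 42.1 and 131, 3.12-fold. The mean share of Ifit2 in that sum was 55.9% in WT and 24.6% in WDR6-WKO hepatocytes, and that of Rsad2 was 22.0% and 39.2%. Ifit1 held 12.0% and 17.1%, Ifit3 8.83% and 14.6% and Ifit3b 1.18% and 4.46%. No library of either genotype reached the range of the other for any of these shares.

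**Figure D2:**
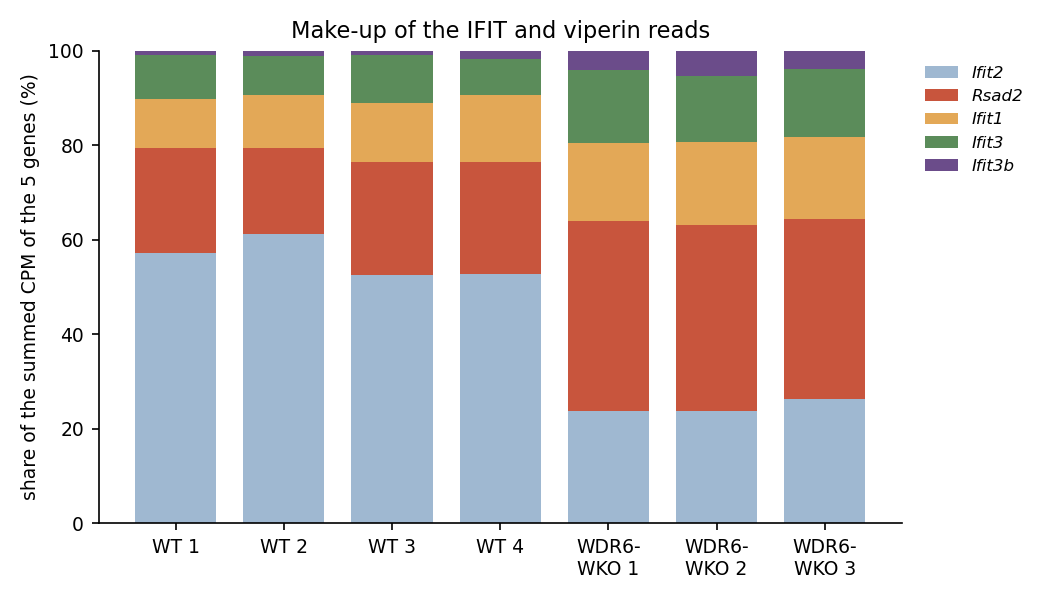
Share of each member in the summed CPM of the 5 genes, in percent, in each WT and WDR6-WKO library. Ifit2 takes 52.5% to 61.2% of the bar in WT and 23.7% to 26.3% in WDR6-WKO libraries, and Rsad2 38.2% to 40.1% in the latter.

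The spread of the members within a genotype is given as a description, since they were chosen on the difference between genotypes. As the mean over members of log2 CPM minus each gene's WT mean, WT replicates 1 to 4 stood at -0.11, -0.19, 0.10 and 0.20 and WDR6-WKO replicates between 2.17 and 2.27. On this mean WDR6-WKO replicate 3, which stood apart over all genes, lay between the other libraries of its genotype, although it was the highest of them for Ifit1 and Ifit2 and the lowest for Ifit3b. Ifit2 by itself stood at 0.48, 0.32 and 0.57 in WDR6-WKO replicates 1 to 3, well below that mean. The coefficient of variation in WT was 19.4% for Ifit1, 16.5% for Ifit3, 17.7% for Rsad2 and 33.8% for Ifit3b, where counting error alone gives 10.1%, 11.8%, 7.43% and 32.0%.

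On chromosome 19 of GRCm38 (GENCODE annotation) Ifit2 lies from 34550694 to 34576419, Ifit3 from 34583531 to 34588731, Ifit3b from 34607970 to 34613401 and Ifit1 from 34640871 to 34650009, all on the plus strand. The other IFIT genes of the cluster, Ifit1bl1 and Ifit1bl2, lie between them on the minus strand. Rsad2 occupies chromosome 12 from 26442746 to 26456452 on the minus strand, head to head with Cmpk2, a mitochondrial nucleotide kinase that supplies CTP, whose start is 12752 bases away. The genes around both loci were tested to see which of the neighbours differed too.

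Cmpk2 averaged 11.1 ± 1.62 CPM in the 4 WT libraries and 32.9 ± 3.29 CPM in the 3 WDR6-WKO libraries, and its log2 fold change was 1.57 (standard error 0.11, edgeR adjusted p = 1.59e-07). Its window, unlike that of Rsad2, held no paired motif. The ratio of Rsad2 to Cmpk2 CPM was 0.842 ± 0.0841 in WT libraries and 1.57 ± 0.0579 in WDR6-WKO libraries (s.d., n = 4 and n = 3), with no overlap. Inside the Ifit cluster neither Ifit1bl1 (0.578 ± 0.187 CPM in WT, s.d., log2 fold change 0.75, standard error 0.38, edgeR adjusted p = 0.213) nor Ifit1bl2 (0.385 ± 0.122 CPM in WT, s.d., log2 fold change 0.83, standard error 0.44, edgeR adjusted p = 0.228) passed the test, and their standard errors are larger than that of any member. Of the 2 windows of Ifit1bl2, the one that overlaps that of Ifit1 holds the same paired motifs and the other holds none.

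The 22 other tested genes at both loci are those inside the cluster and the nearest 5 on each side. Of these, 4 were called higher and 4 lower, against 6.65% and 6.18% of all genes tested. Beside Cmpk2 the higher genes, named after their values were seen, were Stambpl1, Acta2 and Rnaseh1. Stambpl1 and Acta2 lie 310361 and 295104 bases from the cluster, and Rnaseh1 lies 2193150 bases from Rsad2. Ankrd1, 1461952 bases from the cluster, was among the lower genes. Next to the cluster, Slc16a12, a creatine transporter, was lower (log2 fold change -0.52, standard error 0.06, edgeR adjusted p = 2.90e-05) and so was Pank1, a pantothenate kinase of coenzyme A synthesis (-0.28, standard error 0.07, edgeR adjusted p = 0.0229). On the other side, the lysosomal lipase Lipa had a log2 fold change of -0.08 (standard error 0.05, edgeR adjusted p = 0.325) and the cholesterol hydroxylase Ch25h, itself known as an interferon-stimulated gene, one of -0.02 (standard error 0.14, edgeR adjusted p = 0.943). On the chromosome of Rsad2, Id2, 1345606 bases away, was lower (log2 fold change -0.29, standard error 0.04, edgeR adjusted p = 0.000400). Rnf144a, 27492 bases away, at 0.19 and Sox11, 877812 bases away, at 0.15 did not pass (standard errors 0.13 and 0.34, edgeR adjusted p = 0.356 and 0.83).

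**Figure D3:**
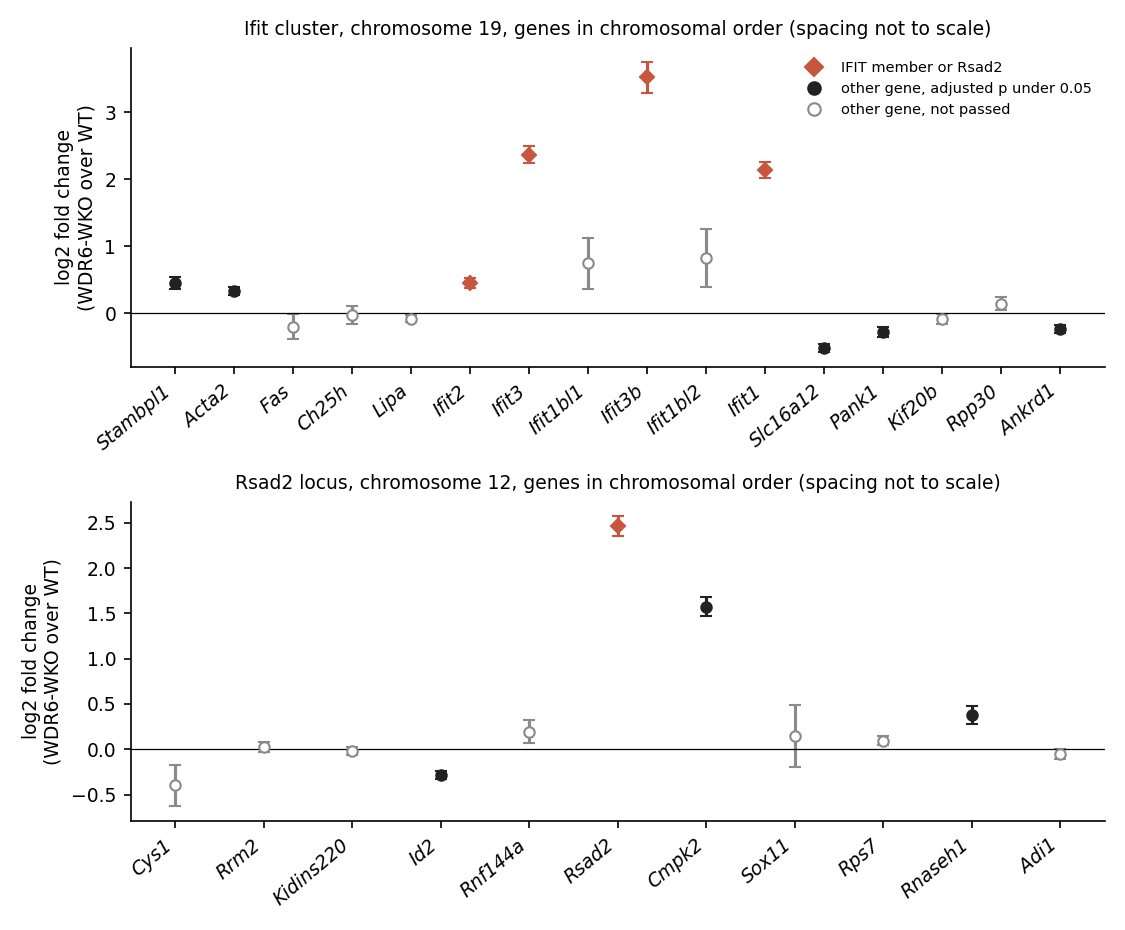
Log2 fold change (WDR6-WKO over WT) with its standard error for the genes of the Ifit cluster and of the Rsad2 locus, in chromosomal order with equal spacing. Members are red diamonds, filled black points passed edgeR's test (adjusted p under 0.05) and open points did not. Ifit3b at 3.52 and Ifit2 at 0.46 are the extremes among the members, and Cmpk2 at 1.57 is the highest of the other genes.

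The wider pathway was read from gene lists chosen for their roles, which partly overlap. The lists were drawn up with earlier results of these same data known, so their counts are a description and not independent support. All 47 listed interferon-stimulated effectors, not counting the members, were tested, of which edgeR's test (adjusted p under 0.05) called 41 higher and 0 lower, against 6.65% and 6.18% of all genes tested. With any single library left out the count of higher effectors was 40 to 43. The median log2 fold change of the list was 0.74, against 0.01 over all genes, so 4 of the 5 members had larger values than the median effector and Ifit2 a smaller one. Oasl1, an oligoadenylate synthetase-like protein, rose from 56.4 ± 4.52 to 125 ± 5.45 CPM (s.d., n = 4 and n = 3; log2 fold change 1.15, standard error 0.06, edgeR adjusted p = 2.33e-08). Usp18, which removes ISG15 from proteins and dampens the receptor, rose by 1.04 on the log2 scale (standard error 0.06, edgeR adjusted p = 5.64e-08), and Oasl2, another protein of the family of Oasl1, by 1.28 (standard error 0.09, edgeR adjusted p = 3.21e-07). Znfx1, an RNA helicase of antiviral defence and the most abundant effector that did not pass, had a log2 fold change of 0.18 (standard error 0.06, edgeR adjusted p = 0.0566).

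Upstream of the members, 8 of 21 nucleic acid sensors and adaptors were higher and 0 lower, against 6.65% and 6.18% of all genes tested. The median log2 fold change of the list was 0.24. The count of higher genes was 8 whichever library was left out. Dhx58, the sensor LGP2, had a log2 fold change of 0.97 (standard error 0.10, edgeR adjusted p = 1.02e-05), Ifi204, a DNA sensor, one of 0.90 (standard error 0.11, edgeR adjusted p = 4.19e-05), and Irf7, a transcription factor of interferon genes, one of 0.93 (standard error 0.10, edgeR adjusted p = 7.71e-05). The nucleic acid sensor Zbp1 rose by 1.13 (standard error 0.14, edgeR adjusted p = 0.000127). Traf3, an adaptor of this pathway, had a value of -0.08 (standard error 0.06, edgeR adjusted p = 0.367). None of the 21 listed interferon genes was among the genes tested, and their levels were not analysed here.

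Of 12 genes for interferon receptors, their kinases and ISGF3, 3 were higher and 3 lower, against 6.65% and 6.18% of all genes tested. Among the higher genes, Stat2, a signal transducer, had a log2 fold change of 0.65 (standard error 0.06, edgeR adjusted p = 3.02e-06) and Irf9, the DNA-binding subunit of ISGF3, one of 0.60 (standard error 0.07, edgeR adjusted p = 3.75e-05). The kinase gene Jak2 was lower, at -0.29 (standard error 0.06, edgeR adjusted p = 0.00458). The remaining lower genes, named after their values were seen, were the receptor genes Ifnar1 at -0.22 and Ifngr1 at -0.20 (edgeR adjusted p = 0.0232 and 0.0132). Jak1, at -0.11 (standard error 0.05), did not pass (edgeR adjusted p = 0.188). The count of lower genes was 1 without WDR6-WKO replicate 1, without replicate 2 or without WT replicate 4, and 5 genes were higher without WDR6-WKO replicate 3.

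Among 22 tested negative regulators of interferon signalling, 3 were higher, Usp18, Isg15 and Adar, all of which are also interferon-stimulated effectors. The share over all genes tested was 6.65% higher and 6.18% lower. Isg15, a ubiquitin-like modifier, had a log2 fold change of 1.88 (standard error 0.21, edgeR adjusted p = 0.000420), and Adar, the RNA editing enzyme that marks self RNA, one of 0.51 (standard error 0.06, edgeR adjusted p = 3.28e-05). The repressor gene Irf2 was lower, at -0.23 (standard error 0.07, edgeR adjusted p = 0.0444), but no gene of the list was lower without WDR6-WKO replicate 1, without replicate 2, or without WT replicate 2, 3 or 4. The phosphatase gene Ptpn11 was at 0.07 (standard error 0.04, edgeR adjusted p = 0.358). Without WDR6-WKO replicate 3 the counts were 8 higher and 2 lower.

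Of 35 tested genes that interferon-gamma is known to induce, 17 were higher, 1 lower and 17 not called. Over all genes tested, 6.65% were higher and 6.18% lower. The list's median log2 fold change was 0.34. The chemokine gene Cxcl10 rose from 5.56 ± 1.04 to 19.1 ± 2.03 CPM (s.d., n = 4 and n = 3; log2 fold change 1.78, standard error 0.13, edgeR adjusted p = 3.84e-07), and the guanylate-binding protein gene Gbp3 had a log2 fold change of 1.49 (standard error 0.12, edgeR adjusted p = 8.19e-07). Gbp2, of the same family, was at 1.09 (standard error 0.10, edgeR adjusted p = 4.65e-06) and the GTPase gene Irgm1 at 0.53 (standard error 0.06, edgeR adjusted p = 1.88e-05). The lower gene, named after its values were seen, was the GTPase gene Iigp1 at -0.34 (standard error 0.08, edgeR adjusted p = 0.0142). Serping1, the C1 inhibitor, was at 0.10 (standard error 0.07, edgeR adjusted p = 0.421). Other genes not called, named after their values were seen, included Irf1 at 0.02, Irf8 at 0.13, Cxcl9 at 0.39 and Cd74 at 0.24. H2-Aa at 0.09, H2-Ab1 at 0.28 and H2-Eb1 at 0.08 were not called either.

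The genes with which the IFIT proteins and viperin work were read against the 6.65% of all genes called higher. Of 23 tested genes of the mRNA cap and of eIF3, 1 was higher (4.35%) and 0 lower, and the median log2 fold change was 0.01. That gene was the eIF3 subunit Eif3c, at 0.19 (standard error 0.05, edgeR adjusted p = 0.0148), and Eif4g1, the scaffold of the cap-binding complex, was at 0.01 (standard error 0.04, edgeR adjusted p = 0.907). The Eif3c call was not made without WDR6-WKO replicate 2 or without WT replicate 2, and without WDR6-WKO replicate 3 the list had 4 higher and 3 lower genes. Of 18 genes for viperin's substrate, its iron-sulfur cluster and its partner proteins, 3 were higher (16.7%) and 0 lower, with a median of 0.03. Beside Cmpk2 these were Nubp2 at 0.32 (standard error 0.08, edgeR adjusted p = 0.0132) and Fam96b at 0.26 (standard error 0.08, edgeR adjusted p = 0.0357), both of the cytosolic machinery that builds iron-sulfur clusters. The count was 1 without WDR6-WKO replicate 1, without replicate 2 or without WT replicate 4, and 5 higher with 2 lower without WDR6-WKO replicate 3. Hadha, a subunit of the mitochondrial trifunctional protein of fatty acid oxidation, had a value of 0.05 (standard error 0.06, edgeR adjusted p = 0.627).

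**Figure D4:**
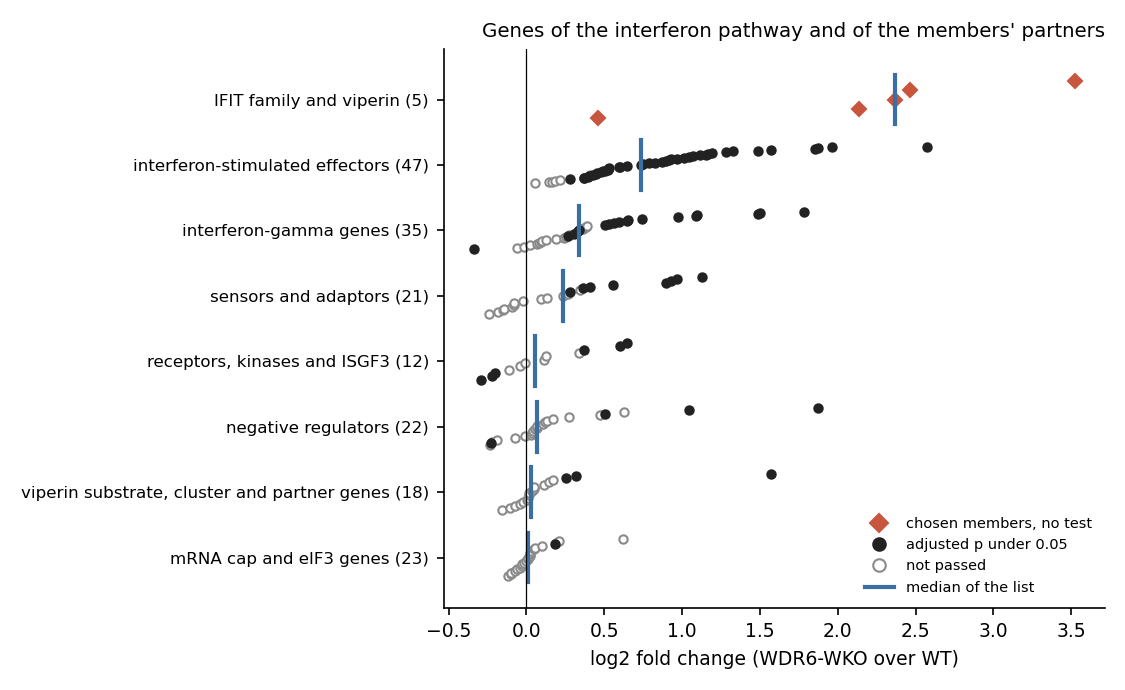
Log2 fold change (WDR6-WKO over WT) of each tested gene by list, with the number of genes in brackets and the list's median as a blue line. Filled points passed edgeR's test (adjusted p under 0.05), open points did not, and members are red. The median is 0.74 for the effectors, 0.34 for the interferon-gamma genes and 0.01 for the mRNA cap and eIF3 genes.

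To place the members among all genes, each gene's log2 CPM minus its WT mean was compared with the same values averaged over the members, as the root mean square distance over the 7 libraries. This measure rests mainly on the difference between genotypes, so it ranks genes with a difference of like size. Among 14769 candidates the nearest was Ifi44, an interferon-stimulated protein, at a distance of 0.244 with a log2 fold change of 1.96. It was followed by Cxcl10 at 0.293, the collagenase gene Mmp13 at 0.298, the antiviral GTPase gene Mx1 at 0.329 and the circadian repressor gene Ciart at 0.330. Next came 2810414N06Rik at 0.388, Isg15 at 0.393, Mx2, another antiviral GTPase gene, at 0.397, the carboxypeptidase gene Cpa4 at 0.401 and Chac1, a glutathione-degrading enzyme gene known as an ATF4 target, at 0.401. Of the members, Ifit1 lay nearest to their mean, at 0.0883, then Rsad2 and Ifit3, both at 0.198, while Ifit3b at 0.930 and Ifit2 at 1.16 lay farther from it than all 10 of these genes.

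**Figure D5:**
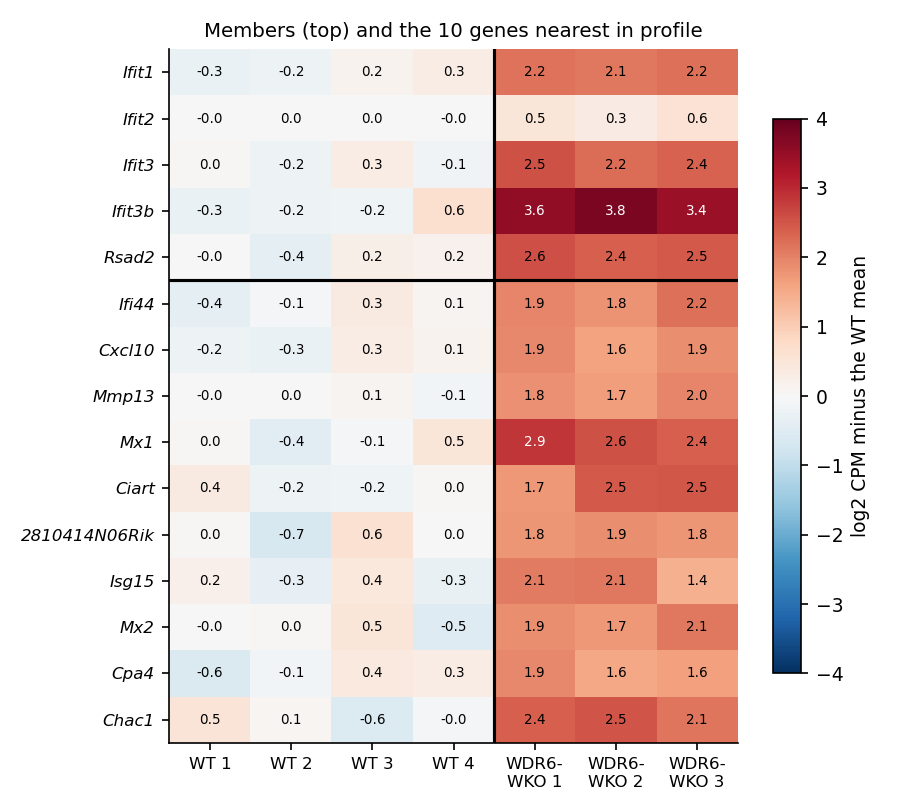
Log2 CPM minus the WT mean of each gene, as colour and number, for the 5 members (above the line) and the 10 genes nearest in profile, in the 4 WT and 3 WDR6-WKO libraries. The members' mean lies between 2.17 and 2.27 in WDR6-WKO replicates 1 to 3, and the row of Ifit2 is the palest.

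Some markers of other liver cells differed between the genotypes as well. The counts below stand against 6.65% of all genes tested called higher and 6.18% called lower. Of 17 listed Kupffer cell and macrophage markers 16 were tested, with 5 higher and 0 lower, a median log2 fold change of 0.23, and a summed level of 944 to 1053 CPM in WT and 1096 to 1301 CPM in WDR6-WKO libraries. Those that were higher, named after their values were seen, were Lyz2, C1qb, C1qc, Fcgr1 and Itgam, while Clec4f, the lectin that defines Kupffer cells, had a log2 fold change of 0.10 (standard error 0.06, edgeR adjusted p = 0.311). Timd4 at -0.48 and Ptprc at -0.03 on the log2 scale were not called (edgeR adjusted p = 0.0880 and 0.873). The other tested markers of this list that were not called had values above 0. WDR6-WKO replicate 3 had the lowest summed marker level of its genotype, 1096 CPM, and among the WDR6-WKO libraries it was lowest for Ifit3b, highest for Ifit1 and Ifit2, and between the others for Ifit3 and Rsad2. Of 9 dendritic cell markers 5 were tested, and 2 were higher, Itgax and Bst2, the latter also an interferon-stimulated effector. The summed level of the tested markers was 211 to 230 CPM in WT and 271 to 343 CPM in WDR6-WKO libraries. Bst2 alone averaged 172 CPM in WT and 260 CPM in WDR6-WKO libraries, so this sum mostly follows that gene. Tcf4 at -0.04, Clec9a at -0.21 and Zbtb46 at 0.14 on the log2 scale were not called. None of 10 T, NK and B cell markers was among the genes tested. Of 11 tested hepatocyte markers 0 were higher and 6 lower, among them Apoa1 and Hnf4a, and their sum was 13526 to 16111 CPM in WT and 12486 to 14416 CPM in WDR6-WKO libraries. Of 5 tested cholangiocyte markers 2 were higher, Sox9 and Spp1, with sums of 3068 to 3360 CPM in WT and 3714 to 4306 CPM in WDR6-WKO libraries. Spp1 alone averaged 2980 CPM in WT and 3693 CPM in WDR6-WKO libraries, so these sums mostly follow that gene. Krt7 at -0.10, Krt19 at -0.05 and Epcam at 0.34 on the log2 scale were not called. Of 10 stellate cell and fibroblast markers 2 were higher and 1 lower, with sums of 692 to 754 CPM and 739 to 806 CPM, which overlap. Of 8 sinusoidal endothelial markers 0 were called in either direction, with sums of 279 to 321 CPM and 262 to 314 CPM, and the 1 tested of 6 neutrophil markers was not called. The part of these cells in the levels of the members was not tested.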

How the data were processed

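Primary hepatocytes of 4 WT and 3 WDR6-WKO mice were analysed by RNA-seq. The submitters' processing notes name Bowtie2 2.2.3 and the build mm10, and the authors deposited raw counts of reads per gene symbol. The counting tool, annotation and strand setting are not given in the sources used here, so reads from antisense genes cannot be told apart. The members and all lists were chosen with earlier results of these data known.

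Counts were scaled with TMM and tested over 14779 genes with edgeR 4.0.16 (robust quasi-likelihood test, filterByExpr, no replicate block, R 4.3.3), with Benjamini-Hochberg adjusted p-values. CPM are TMM-scaled. Standard errors were derived from the F statistic. The fit was tested on simulated data. Named genes were the members, Wdr6, the other IFIT genes, the nearest 2 tested genes on each side of the loci, the 4 called genes with the smallest p and the most abundant gene not called in each list, and the 10 nearest profiles; 1 gene that this rule names is not reported here. Exon lengths and coordinates came from GENCODE M21, promoters from RefSeq (GRCm38.p6). Alternatives were DESeq2 1.42.0, limma-voom 3.58.1, other scalings and filters, a replicate block, the study's thresholds, longer sequences, the GAS core and each library left out. No protein sequences were used here.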

Additional observations from a re-analysis of the deposited data

Results flagged for a closer look

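In the WT group of 4 libraries, the gap between the outermost library and its nearest neighbour, divided by the group's range, was compared with Dixon's 95% critical value for 52 named genes, of which 4 passed it, 1 of them a member. Chance alone flags about 1 in 20 such groups. Ifit3b had its highest WT level in replicate 4, 0.753 CPM or 15 reads beside 8 reads in each of the others, with a ratio of 0.915. The sensor gene Zbp1 was highest in WT replicate 3, at 12.5 CPM, with a ratio of 0.844. At the loci, Lipa was lowest in WT replicate 1 with a ratio of 0.887, and so was Sox11 with a ratio of 0.888.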

How the results depend on the processing

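The log2 fold changes of the members kept their direction in every fit, with 2.05 to 2.26 for Ifit1, 0.40 to 0.52 for Ifit2, 2.28 to 2.48 for Ifit3 and 2.36 to 2.54 for Rsad2 over 14 alternatives. Ifit3b ranged from 3.43 to 3.79 over 13, since it does not have 10 counts in every library and could not be fitted under that filter. Of the values outside the fits that leave out a library, 188 held within the limits set for each kind of value and 15 moved past them. The study's thresholds are a log2 fold change of at least 0.35 in either direction and p under 0.05. Here they were applied to the edgeR fit with p not adjusted, so the counts are not the study's own DESeq2 result. Under these thresholds 583 genes were lower, 0 interferon-gamma genes and 0 receptor and kinase genes were lower, 5 negative regulators were higher and 0 lower, and 1 gene of the viperin list was higher. Library sizes alone gave 2 higher cap and eIF3 genes and 0 lower negative regulators, a filter of at least 10 counts in every library 2 higher cap and eIF3 genes, and limma-voom 0 lower negative regulators. In 100-base sequences the shared part was 3.29% for Ifit1, 31.7% for Ifit3 and 27.4% for Ifit3b, and the GAS core in place of the paired motif was found in 1 member. The cause of these shifts was not tested.

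With 1 library left out in turn, 570 to 2150 genes were higher and 462 to 2083 lower, Wdr6 stayed between -4.27 and -4.15 on the log2 scale, and the effectors had 40 to 43 higher calls. Higher and lower calls ranged from 3 to 8 and 0 to 2 for negative regulators, 3 to 5 and 1 to 4 for receptors and kinases, 0 to 4 and 0 to 3 for cap and eIF3 genes, and 1 to 5 and 0 to 2 for the viperin list. The sensors had 8 higher and 0 to 1 lower, the interferon-gamma genes 15 to 21 higher and 1 lower, and the locus neighbours 3 to 5 higher.

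Replicate numbers are shared between the genotypes but come from different mice. Deviations of same-numbered libraries correlated at 0.0941, 0.0425 and 0.0724 over 13441 genes, and not every library correlated best with its own number. With the number as a block, 945 genes were higher and 817 lower, and the single lower call among the negative regulators became 0.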
